A study of Homo sapiens with 3 samples.

Results

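AXL, EGFR and MET are receptor tyrosine kinases, and EREG (epiregulin) and NRG1 (neuregulin 1) are ligands of the ERBB family, to which EGFR belongs. These 5 genes were described across 3 Affymetrix arrays of A549 cells, a long-established line grown from a human lung adenocarcinoma. They were taken by their symbols in the platform's annotation, with the brightest probe set standing for its gene. Each of the 5 had 1 named probe set, so the 5 probe sets are all that were annotated to them, out of 14884 genes named on the array. The genes were proposed with their levels on these same arrays already seen, so those levels are given here as a description and carry no test.

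The arrays came from A549 cells transfected with an siRNA against TAZ (siTAZ), an siRNA against YAP (siYAP) or a control siRNA (siNC). TAZ is the product of WWTR1 and YAP that of YAP1. All cells were transfected with Lipofectamine RNAiMAX and taken 48 h later, and cDNA was labelled from 500 ng of total RNA. Each siRNA had 1 array, in 1 cell line and as a transient knockdown, so no value has a replicate error and no difference could be set against the spread between cultures. How many siRNA sequences were used against each target is not given in the sources used here.

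YAP and TAZ are co-activators at the end of the Hippo pathway that have no DNA-binding domain of their own and reach their genes mainly through TEAD transcription factors. AXL is a TAM family receptor for GAS6, is widely cited as a YAP/TAZ target gene, and is studied in lung cancer as a bypass route when EGFR is inhibited. EGFR binds EGF-like ligands, among them epiregulin, and pairs with other ERBB receptors. Neuregulin 1 binds ERBB3 and ERBB4, and MET is the receptor for hepatocyte growth factor. All of these receptors feed the RAS-ERK and PI3K-AKT relays.

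Levels are RMA values on a log2 scale, on which a difference of 1 is a 2-fold difference, and normalization makes each level relative within its array. Levels are compared between arrays for a given gene and not between genes. The siRNA targets come first. WWTR1 was at 5.81 (siTAZ), 6.50 (siYAP) and 6.50 (siNC), so the siTAZ array kept 62.2% of the control level. YAP1 was at 8.24 (siTAZ), 6.87 (siYAP) and 8.45 (siNC) by its brightest probe set, so the siYAP array kept 33.5%. Its second, dimmer probe set was at 4.75 (siTAZ), 4.38 (siYAP) and 4.95 (siNC), a smaller siYAP difference of -0.57. Of 9 epithelial and A549 markers, 5 had a named probe set and all 5 passed the filter on dim probe sets, set at a mean of 4.27. Their summed level on the linear scale was 3186 (siTAZ), 3574 (siYAP) and 3590 (siNC). KRT18, at a log2 level of 11.38 (siTAZ), 11.56 (siYAP) and 11.56 (siNC), made up most of each sum and of the gap between siTAZ and siNC. Differences from siNC in the siTAZ array were -0.42 for KRT7, -0.18 for KRT18, -0.10 for EPCAM and 0 for KRT8 and KRT19, and in the siYAP array all 5 lay between -0.04 and 0.04. Of 16 markers of leukocytes, endothelial cells and fibroblasts, 7 had a named probe set and 5 of these passed the filter. The summed level of all 7 on the linear scale was 891 (siTAZ), 890 (siYAP) and 618 (siNC), and CD68 and LUM accounted for most of the gap. CD68 was 0.57 (siTAZ) and 0.59 (siYAP) above siNC, and LUM was 0.69 and 0.66 above it. The other 3 that passed did not follow: THY1 was at -0.16 in both, VWF at 0 in both, and CD14 at 0 (siTAZ) and 0.06 (siYAP). The endothelial marker PECAM1 and the fibroblast marker DCN were under the filter. PECAM1 was 0.30 (siTAZ) and 0.21 (siYAP) above siNC at that dim level, and DCN was at 0 in both. The part the epithelial and other markers have in the values below was not tested.

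The 300-base windows around the start sites are shown for AXL, which had the most negative difference of the 5 genes in both knockdown arrays, and for EREG, whose level differed most between the siYAP and siTAZ arrays. They run from 250 bases before to 50 bases after the start, 5′ to 3′ on the gene's strand, from RefSeq's GRCh38.p14 tables, in which 4 of the 5 genes were matched (AXL, EGFR, MET and EREG). Capitals mark CATTCC, the core of the TEAD binding motif. AXL lies at chr19:41218973-41219272 and EREG at chr4:74364895-74365194, both on the plus strand.
AXL: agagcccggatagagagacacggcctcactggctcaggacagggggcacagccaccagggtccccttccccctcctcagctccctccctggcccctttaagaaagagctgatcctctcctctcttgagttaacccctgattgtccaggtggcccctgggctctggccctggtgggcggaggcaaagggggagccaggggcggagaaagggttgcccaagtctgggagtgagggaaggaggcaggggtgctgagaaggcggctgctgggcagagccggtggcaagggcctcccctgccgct
EREG: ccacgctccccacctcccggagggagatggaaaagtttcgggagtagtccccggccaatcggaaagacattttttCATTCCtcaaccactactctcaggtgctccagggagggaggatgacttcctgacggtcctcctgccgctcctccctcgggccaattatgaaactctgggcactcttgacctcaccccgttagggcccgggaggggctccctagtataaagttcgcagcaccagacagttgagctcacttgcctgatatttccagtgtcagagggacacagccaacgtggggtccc
The letters CATTCC, read on both strands, occurred in 1 of the 4 windows, that of EREG, 175 to 170 bases before the start site. They occur in 3836 of all 27305 windows of this length, and in 933 (11.2%) of the 8315 windows of genes above the filter. The AP-1 motif, written as TGACTCA or TGAGTCA and so covering both strands, was in 0 of the 4 windows and in 4.92% of all windows. A match is a run of letters and not a bound site. These windows do not reach distal enhancers, so a window without the letters says nothing about TEAD binding elsewhere. The windows also differed in base composition. G and C made up 66.0% of the AXL window, 75.3% of the EGFR window, 69.3% of the MET window and 57.7% of the EREG window, against a median of 58.3% over all windows. CpG pairs numbered 7 (AXL), 33 (EGFR), 30 (MET) and 12 (EREG), against a median of 14.

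AXL was lower in both knockdown arrays than in the control array. Its level was 7.78 (siTAZ), 8.06 (siYAP) and 9.24 (siNC). Both knockdown arrays lay more than 1 log2 unit under the control and within 0.28 of each other. AXL was thus 2.76-fold lower in the siTAZ array (difference -1.46), which left 36.3% of the control level. It was 2.27-fold lower in the siYAP array (difference -1.18), which left 44.1%. Among the 10768 genes above the filter, AXL ranked 5 from the lowest in the siTAZ comparison and 3 from the lowest in the siYAP comparison. In bulk RNA, fewer cells making a transcript and less of it in each cell cannot be told apart.

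EGFR was lower mainly in the siTAZ array. Its level was 8.46 (siTAZ), 8.85 (siYAP) and 8.99 (siNC). The siYAP value was close to the control and the siTAZ value stood below both. The difference from siNC was -0.53 in the siTAZ array, 1.45-fold lower, and -0.14 in the siYAP array, 1.10-fold lower. EGFR ranked 144 from the lowest in the siTAZ comparison and 791 in the siYAP comparison.

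MET, the hepatocyte growth factor receptor, had the narrowest range of the 3 receptors. Its level was 10.11 (siTAZ), 9.98 (siYAP) and 10.24 (siNC), with the siYAP array lowest. MET was 1.10-fold lower in the siTAZ array (difference -0.13) and 1.20-fold lower in the siYAP array (difference -0.26). It ranked 1057 and 336 from the lowest in these comparisons.

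The ligand gene EREG was low in the siYAP array. Its level was 8.55 (siTAZ), 7.98 (siYAP) and 8.55 (siNC). The siTAZ and siNC values were identical to the last deposited digit, and the siYAP value stood 0.57 below both, which is 1.48-fold lower and 67.4% of the control level. In the siYAP comparison EREG ranked 46 from the lowest. Identical values were frequent on these arrays. Of the genes above the filter, 48.5% had the same value in the siTAZ and siNC arrays, and 71.5% had the same value in at least 1 pair of arrays. EREG was the single gene of the 5 with such a pair. With 1 array each, a difference of 0 has no error and does not show equal transcript levels.

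The other ligand gene, NRG1, was lower in both knockdown arrays. Its level was 6.20 (siTAZ), 6.37 (siYAP) and 6.70 (siNC). The order of the arrays was that of AXL and EGFR, with siTAZ lowest and siNC highest. NRG1 was 1.42-fold lower in the siTAZ array (difference -0.51) and 1.26-fold lower in the siYAP array (difference -0.33). It ranked 158 and 218 from the lowest.

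**Figure D1:**
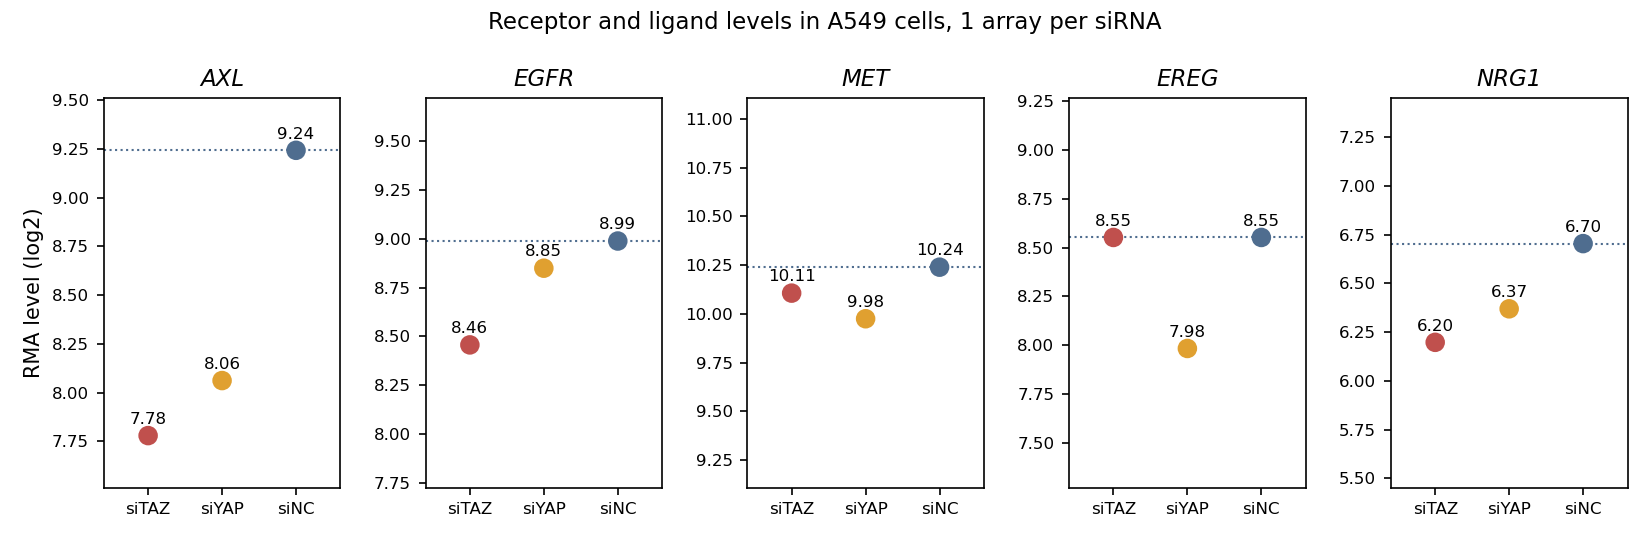
RMA level on a log2 axis of AXL, EGFR, MET, EREG and NRG1 (panels) in the siTAZ, siYAP and siNC arrays, 1 point per array. Each panel spans the same log2 range around its own centre, and the dotted line marks the siNC level. AXL is at 7.78 (siTAZ), 8.06 (siYAP) and 9.24 (siNC), while EREG is apart from siNC in the siYAP array alone.

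Of the 5 genes, AXL passed the 2-fold mark downward after TAZ knockdown, as did 26 genes (0.241%) in all, and after YAP knockdown, as did 13 genes (0.121%) in all. At 1.5-fold the count was again AXL alone in each, against 1.02% of genes in the siTAZ comparison and 0.381% in the siYAP comparison. EREG in the siYAP array and EGFR and NRG1 in the siTAZ array lay under the 1.5-fold mark. By any amount, 4 of 5 were lower in the siTAZ array and 5 of 5 in the siYAP array, against 21.7% of all genes in each. None was higher by any amount, against 29.7% of all genes (siTAZ) and 27.0% (siYAP), and EREG was identical to siNC in the siTAZ array, as were 48.5% of all genes, while 51.3% were identical in the siYAP comparison. As the 5 genes were picked from these same values, their counts are not evidence about the group. AXL was past the 2-fold mark at -1.46 (siTAZ) and -1.18 (siYAP), values that have no replicate error. At that mark MIR4454 (-1.002) was just inside and FBXW10 (-0.998) just outside in the siTAZ comparison, and CTPS1 (-1.001) and F2RL2 (-0.99) stood in those places in the siYAP comparison. The comparisons share the siNC array, so a high or low siNC value moves both differences together. Against the mean of siNC and the other knockdown array, AXL was at -0.87 (siTAZ) and -0.45 (siYAP), under 2-fold in both. EGFR was then at 0.13 in the siYAP array, a turned direction. That reference holds a knockdown array, and these values follow from the differences from siNC already given, so they are not a separate check.

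**Figure D2:**
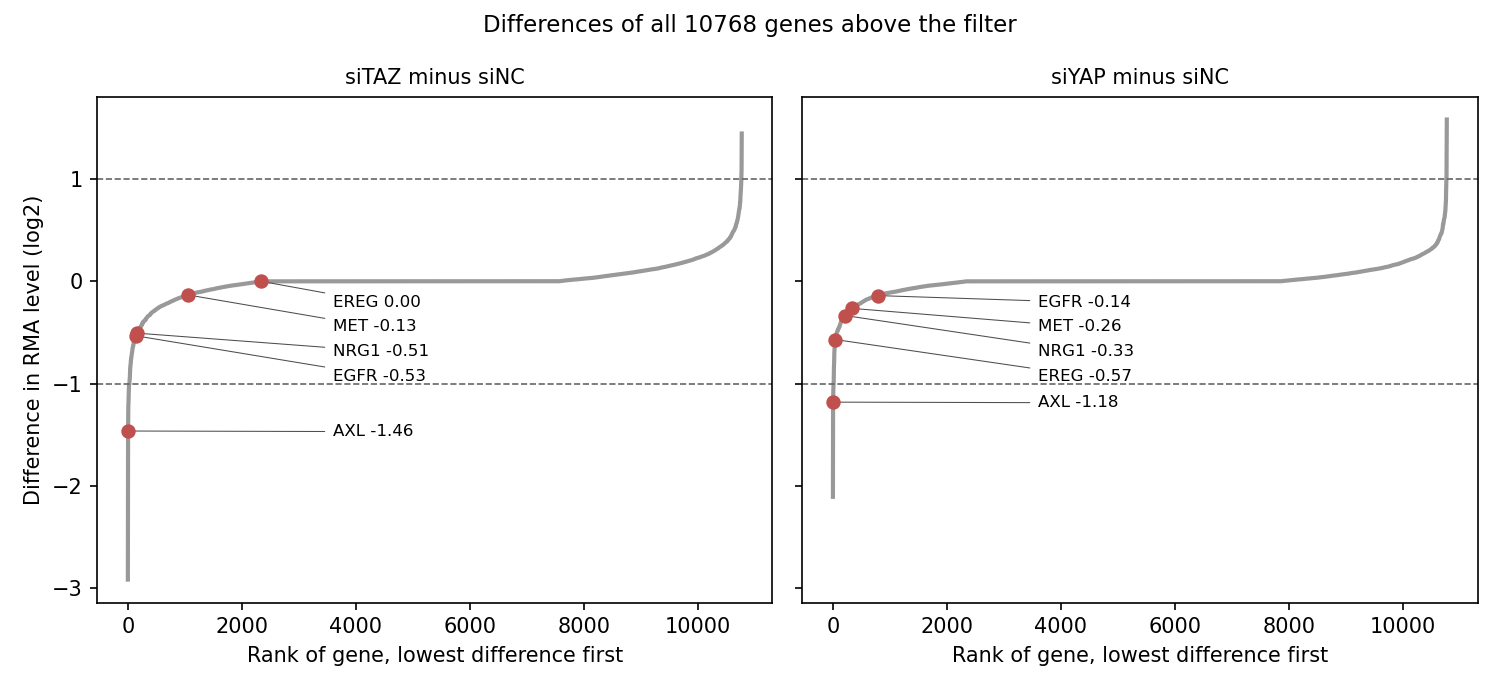
Difference in RMA level (log2) of the 10768 genes above the filter, ordered from the lowest, for siTAZ minus siNC (left) and siYAP minus siNC (right). The grey line is all genes, red points are the 5 genes and dashed lines mark 2-fold. AXL lies past the lower 2-fold line in both panels, and the flat stretch at 0 holds the genes with identical values.

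The direct difference between the knockdowns does not subtract the siNC array. EREG was 7.98 in the siYAP array against 8.55 in the siTAZ array, a difference of -0.57 that ranked 20 from the lowest of 10768 genes. EGFR was 8.85 in the siYAP array against 8.46 in the siTAZ array, 1.31-fold higher with siYAP (0.39), and ranked 161 from the highest. AXL was 1.22-fold higher with siYAP than with siTAZ (0.28), NRG1 1.13-fold higher (0.17) and MET 1.10-fold lower (-0.13). The 3 genes with the lower value in the siTAZ array were thus AXL, EGFR and NRG1, and the 2 with the lower value in the siYAP array were MET and EREG. None of the 5 reached 1.5-fold here, a mark that 0.566% of genes passed upward and 0.176% downward. By the brightest probe sets, 62.2% of WWTR1 was left in the siTAZ array and 33.5% of YAP1 in the siYAP array. The dimmer YAP1 probe set had a siYAP difference of -0.57, near the -0.69 of WWTR1 in the siTAZ array. That YAP1 probe set lay close to the filter level of 4.27, at 4.38 (siYAP) and 4.95 (siNC). Whether the knockdowns differed in depth is thus not settled. The part that depth has in the direct differences cannot be told apart from the choice of target.

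Other ERBB family genes were dim or close to the control. Of the receptors, ERBB3, which lacks strong kinase activity and signals through its partners, was at 6.78 (siTAZ), 7.001 (siYAP) and 6.98 (siNC), differences of -0.19 and 0.02. ERBB4, the other neuregulin receptor, was identical on all 3 arrays at a level under the filter (4.15). ERBB2 had no named probe set. Of 11 ERBB ligand genes, 9 had a named probe set and 7 passed the filter. Beside EREG and NRG1, HBEGF, a heparin-binding EGFR ligand, was at 4.48 (siTAZ), 4.48 (siYAP) and 4.80 (siNC), a difference of -0.32 in both at a dim level. NRG4, an ERBB4 ligand, was 0.19 higher in both knockdown arrays (6.80, 6.80 and 6.61 in siTAZ, siYAP and siNC). EGF, BTC and NRG2 had identical values on all 3 arrays, as did 41.1% of all genes above the filter. EPGN and NRG3 were under the filter, and TGFA and AREG had no named probe set. The median difference of the 7 ligands was 0 in both comparisons, as it was over all 10768 genes.

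The partners of AXL did not share its size of difference. MERTK, a TAM receptor, was at 4.33 (siTAZ), 4.33 (siYAP) and 4.73 (siNC), -0.39 in both at a dim level. TYRO3, the remaining TAM receptor, was identical on all 3 arrays (4.83), as were 41.1% of all genes above the filter. GAS6, the main AXL ligand, was at 5.88 (siTAZ), 5.80 (siYAP) and 5.80 (siNC), a difference of 0.08 in the siTAZ array. PROS1 (protein S), which binds TYRO3 and MERTK, was at 8.98 (siTAZ), 8.83 (siYAP) and 8.81 (siNC), differences of 0.17 and 0.02.

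In the MET family, MST1R (RON), the receptor closest to MET, was at 6.31 (siTAZ), 6.08 (siYAP) and 6.08 (siNC). Its second, dimmer probe set was identical on all 3 arrays (5.46). MST1, the ligand of MST1R, was -0.16 in the siTAZ array and identical to the control in the siYAP array, but has near-identical gene copies whose signal its probes may share. HGF, the ligand of MET, was under the filter on average, at 4.34 (siTAZ), 4.34 (siYAP) and 3.998 (siNC). ST14 and HGFAC, proteases that activate these ligands, differed from the control by 0.06 and 0.05 in the siTAZ array. In the siYAP array ST14 differed by 0.06 and HGFAC was identical to the control. SPINT1 and SPINT2, inhibitors of such proteases, had no named probe set.

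Among the 49 other receptor tyrosine kinases, 40 had a named probe set and 28 passed the filter. ROR1, a receptor for Wnt5a, was the single one of these 28 (3.57%) at 1.5-fold or more in either comparison, against 1.02% (siTAZ) and 0.381% (siYAP) of all genes past 1.5-fold downward. Its level was 6.97 (siTAZ), 7.16 (siYAP) and 7.83 (siNC), which is 1.82-fold lower in the siTAZ array and 1.59-fold lower in the siYAP array. It shared the order of the arrays with AXL. Over the 35 receptor tyrosine kinases above the filter, AXL, ROR1 and EGFR had the lowest differences in the siTAZ comparison, and AXL, ROR1 and MERTK in the siYAP comparison, where MET was 4 from the lowest. Of the 32 receptor tyrosine kinases other than AXL, EGFR and MET, 18 (56.2%) had identical values in the siTAZ and siNC arrays, against 48.5% of all genes, and 20 (62.5%) in the siYAP and siNC arrays, against 51.3%.

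Of 9 genes listed here as sheddases of ERBB ligands or members of the rhomboid family, 8 passed the filter and 0 reached 1.5-fold in either comparison. That mark was passed by 1.02% of all genes downward and 0.762% upward (siTAZ) and by 0.381% and 0.520% (siYAP). A list of this size could hold none at those rates. The largest were ADAM9 (10.53, 10.42 and 10.91 in siTAZ, siYAP and siNC), a membrane protease, at -0.38 and -0.49, and its relative ADAM15 (6.84, 6.84 and 6.52) at 0.31 in both. Of 31 adaptor and relay genes, 17 had a named probe set, 16 passed the filter and 0 reached 1.5-fold, which at the same rates is also near the background. STAT3, a transcription factor activated by receptor kinases, was at 9.56 (siTAZ), 9.94 (siYAP) and 9.94 (siNC), -0.38 in the siTAZ array and identical in the siYAP array. SHC1, an adaptor that binds activated receptors, was at -0.27 and -0.19.

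Of 23 genes listed here as negative regulators of receptor signalling, 13 passed the filter. In the siTAZ array 7 of these were lower (53.8%), 3 higher and 3 identical, where 21.7% of all genes were lower and 29.7% higher. In the siYAP array 9 were lower (69.2%), 0 higher and 4 identical, where 21.7% of all genes were lower and 27.0% higher. These counts are not tested and do not show a change in receptor signalling. UBASH3B (STS-1), a phosphatase that removes phosphate from receptor and associated kinases, was at 7.87 (siTAZ), 7.87 (siYAP) and 8.69 (siNC), 1.77-fold lower in both. Its siTAZ and siYAP values were identical, as were those of 53.9% of all genes above the filter. HBEGF, NRG4, MERTK and ADAM15, given above, also had the same value in the siTAZ and siYAP arrays. For these genes the equal differences from siNC follow from that shared value. Over all of these lists without the 5 genes, 79 genes were above the filter. In the siTAZ comparison 2 of them (2.53%) were past 1.5-fold downward, against 1.02% of all genes. In the siYAP comparison 2 of them (2.53%) were, against 0.381% of all genes. Each time these were ROR1 and UBASH3B, and the share of all genes past the mark in both comparisons was not counted. All of the lists were drawn up with earlier results of these data known. Their shares are thus a description and not a check on the 5 genes. None of the 79 was 1.5-fold higher, against 0.762% (siTAZ) and 0.520% (siYAP) of all genes. The 79 genes had 24 lower (30.4%), 21 higher (26.6%) and 34 identical in the siTAZ array, and 25 lower (31.6%), 15 higher (19.0%) and 39 identical in the siYAP array, with a median of 0 in both.

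**Figure D3:**
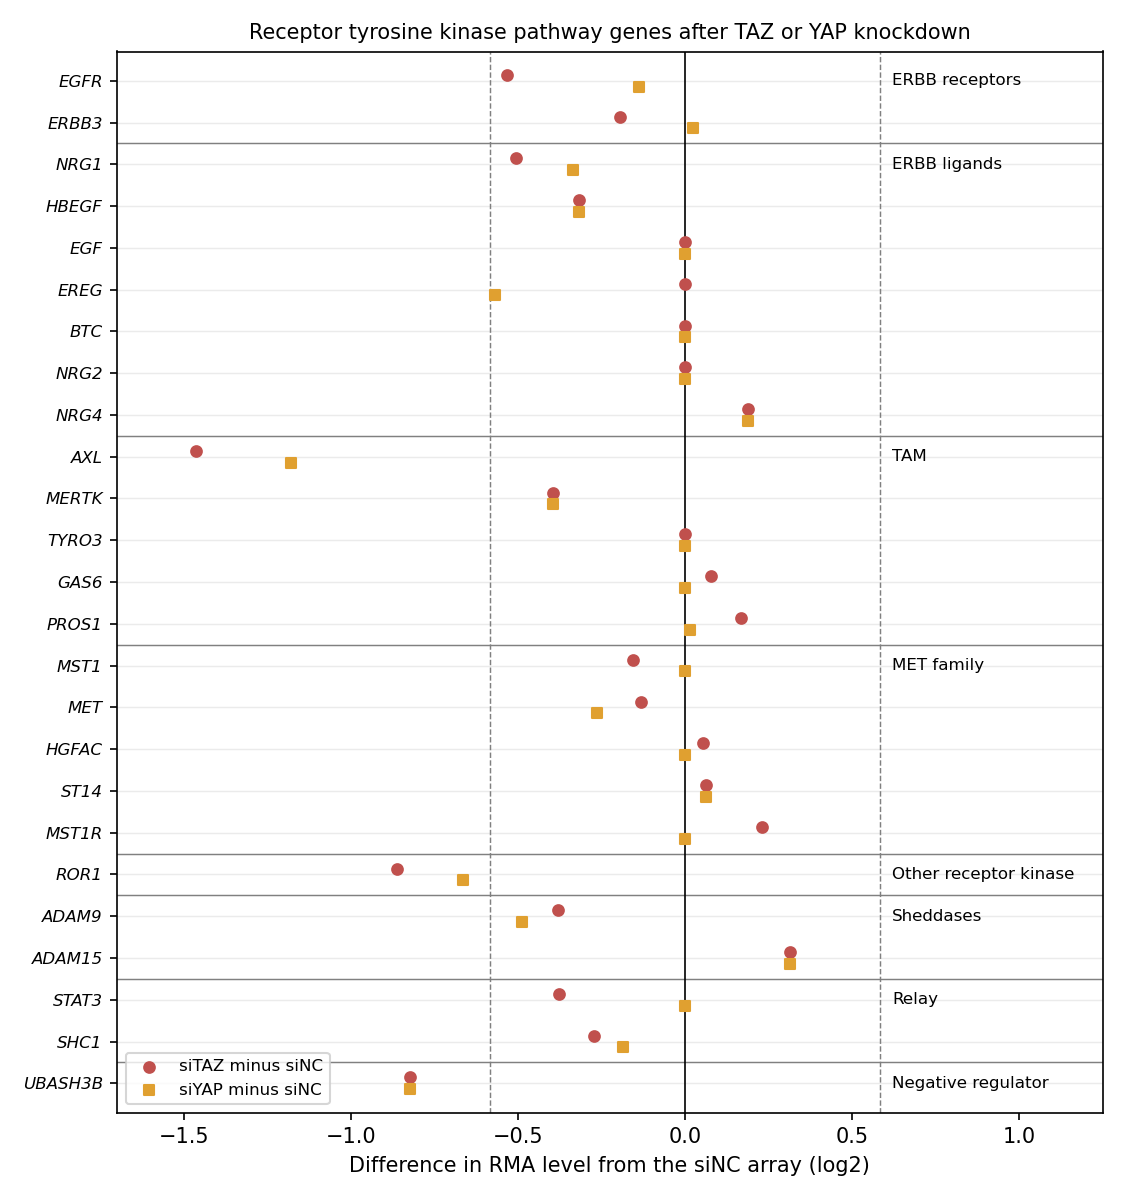
Difference in RMA level (log2) from the siNC array for genes of the receptor lists above the filter, siTAZ as circles and siYAP as squares, 1 array each. All kept ERBB, TAM and MET family genes are drawn, with the named genes of the other lists, and dashed lines mark 1.5-fold. AXL, ROR1 and UBASH3B are past the lower line in both arrays, and most ERBB ligands other than EREG and NRG1 lie near 0.

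For each of the 5 genes the genes with the most similar pair of differences were sought, by the straight-line distance in the plane of the siTAZ and siYAP differences over the 3 arrays. For AXL these were CCN2 (-1.55 and -1.09, distance 0.13), F2RL2 (-1.20 and -0.99, distance 0.33) and IL11 (-1.11 and -1.01, distance 0.40). AXL thus stood in a sparse region, with CCN2 much nearer than the others. For EGFR they were IL18 (-0.52 and -0.14), NUP153 (-0.52 and -0.14) and GSK3B (-0.51 and -0.14), at distances of 0.013 to 0.022. For NRG1 they were AJUBA (-0.51 and -0.35), CHIC1 (-0.50 and -0.35) and S100A10 (-0.51 and -0.31), at distances of 0.017 to 0.024. For MET they were PAPSS2, FZD3 and MORC4, at distances of 0.0061 to 0.015. EREG had no named protein-coding gene among its nearest 3, which were the microRNA genes MIR548V (-0.02 and -0.54, distance 0.038), MIR4274 (0 and -0.46) and MIR1226 (-0.11 and -0.61). With 2 differences from 3 arrays, such likeness is a description of these arrays.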

How the data were processed

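Total RNA of 3 A549 cultures was measured on 3 Affymetrix arrays. The authors made the deposited values, taken here as log2 levels, with RMA (background correction, quantile normalization and probe summary), per the submitters' processing notes. No source names the log base, and log2 was inferred from a range of 0.961 to 13.5. The sources used here name neither an RMA version nor a genome build. The number of arrays limits the precision. Symbols came from the platform annotation: 16098 probe sets had 1 symbol, 0 had several and 37519 were unnamed. All 16098 matched RefSeq's GRCh38.p14 table by Entrez identifier and 0 symbols changed. A gene was kept when the mean of its brightest probe set was no lower than the median probe set (4.27), which left 10768 genes. A difference is one log2 level minus another. With 1 array per siRNA there was no test, and genes were counted at 2-fold and 1.5-fold. The 5 genes and the lists were chosen with earlier results of these data known. The text names the 5 genes, every ERBB, TAM and MET family gene with a probe set, genes at 1.5-fold of the other lists (or the 2 with the largest difference), and the 3 nearest genes of each of the 5. Steps were tested on simulated data. Python 3.11.15, pandas 2.3.3 and statsmodels 0.14.6 were used.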

Additional observations from a re-analysis of the deposited data

How the results depend on the processing

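The differences of the 5 genes were recomputed with no filter on dim probe sets, a stricter one (75th percentile), centring at a median of 0, a loess trend subtracted (span 0.4), a repeated quantile normalization and averaged probe sets per gene. Of 90 values, 60 could not move, because 4 of the alternatives (both filters, centring on medians that already were 0, and averaging the single probe set of each gene) leave a gene's difference as it is. The other 30, under the loess trend and the repeated quantile normalization, moved by at most 0.021. These alternatives also had little room to move a value. The deposited values were already quantile normalized, and 48.5% to 53.9% of the differences of genes above the filter were exactly 0. Under the loess trend the siYAP minus siTAZ values of the 5 genes did not change. AXL ranged from -1.46 to -1.45 (siTAZ) and stayed at -1.18 (siYAP), and EREG from -0.59 to -0.57 (siYAP). With the mean of the siNC array and the other knockdown array as reference, 3 of 10 values stayed within 0.1. AXL was then at -0.87 (siTAZ) and -0.45 (siYAP), under 2-fold in both, NRG1 at -0.34 and -0.08, EREG at 0.28 in the siTAZ array, MET at -0.00086 in the siTAZ array and EGFR at 0.13 in the siYAP array, above its reference. These shifts follow from a reference that holds a knockdown array. With it, genes at 2-fold numbered 13 lower and 1 higher (siTAZ) and 1 lower and 0 higher (siYAP), and genes at 1.5-fold 67 lower and 25 higher (siTAZ) and 12 lower and 19 higher (siYAP). For siYAP minus siTAZ without a filter, 5 genes were 2-fold lower and 32 were 1.5-fold lower, against 3 and 19 with it, as more genes were counted. No paired analysis was possible because each group has 1 array. Leaving out an array would leave a group empty. Members of the lists with no named probe set, and dim genes such as MERTK, HBEGF and HGF, limit what can be said of them.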
